A study of Mus musculus with 16 samples.

Results

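Peritoneal B1a cells and splenic B cells of C57BL/6 (B6) mice were compared on 8 microarrays, 4 of B1a cells and 4 of splenic B cells (Bs), chosen from the 16 arrays of the series by sample titles that begin with B6. Every group used here came from mice 5 months old. The B6 mice carried no named allele, and the other 8 arrays hold the same cell types from the congenic strain B6.Sle2c1, which carries the Sle2c1 segment of the lupus-prone NZM2410 strain, with 4 arrays each. Bs cells were the CD43-negative fraction of spleen, stated to hold over 90% B220hi cells. For the B1a preparations, peritoneal cells were first cultured for 2 h at 37 degrees in 10% serum, which took out adherent macrophages. Cells with Thy1.2 or CD3ε were then removed and cells with CD5 selected, and the product was stated to hold 80% B220int CD5+ cells. The 2 h of culture, the antibody selection, the organ of origin and the stated purity all went with the cell type, and their effects on a difference cannot be told apart from it. No label says whether the arrays of a group came from separate mice, so the p-values measure a spread between arrays, which may be technical. That spread was pooled over the groups of all 16 arrays, the 8 Sle2c1 arrays included.

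B1a cells are a B cell lineage that largely arises early in life and renews itself in the peritoneal and pleural cavities. They carry CD5, secrete natural IgM without prior immunisation, and are a known source of interleukin 10. Follicular B cells, which make up most of the spleen's B cells, recirculate and carry CD21 and CD23, while marginal zone B cells of the spleen carry high CD21 and CD1d.

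Levels are given in units of the deposited score, a log-like array signal whose base, centring and scaling are not given in the sources used here. A difference is the mean of the 4 B1a arrays minus the mean of the 4 Bs arrays, and cannot be turned into a fold. Values under 0.495 units carry no level and were set to 0.495, called the floor. With all 4 arrays of a group at the floor, only a lower bound of the difference is known, written "at least". Such a group shows no spread, which can make the SE and p-value of these genes too small. A gene is called higher or lower in B1a where limma's moderated test, with Benjamini-Hochberg adjustment over 22727 features, gave an adjusted p under 0.05. The 563 features on the X and Y chromosomes were left out after the fit.

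The 4 B1a arrays correlated with each other at 0.94 to 0.97, and the 4 Bs arrays at 0.778 to 0.965. Bs 1 correlated on average at 0.882 with its own group and at 0.91 with the B1a arrays, and Bs 3 at 0.856 and 0.708. Of 14631 named autosomal genes, 1656 (11.3%) were higher and 1620 (11.1%) lower in B1a, and over all 22164 features the calls were 2001 (9.03%) and 2729 (12.3%). Without both Bs 1 and Bs 3 the feature counts were 1515 higher and 2609 lower, and leaving out Bs 1 alone gave 4198 lower features. The median difference over all named genes was -0.01 units. The groups did not overlap for 1501 of the 1656 higher and 1303 of the 1620 lower genes. With 4 arrays a side, genes past the test tend not to overlap, so these counts are no further support. The share over all named genes is not given here. Among called genes the median size of the difference was 0.518 units, and 295 higher and 254 lower genes differed by at least 1 unit.

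The genes that define the selections followed them in part. Cd5, whose product was used for positive selection, read 1.33, 1.22, 1.12 and 0.64 units on the 4 B1a arrays and lay at the floor on all 4 Bs arrays, so that the groups did not overlap. The difference was at least 0.58 (SE 0.15, limma adjusted p = 0.016), and the call ended without B1a 1 (adjusted p = 0.0538) or without B1a 2 (0.0512). Spn, which encodes CD43, the antigen absent from the Bs fraction, differed by 0.26 (adjusted p = 0.16) and did not pass. Ptprc, the gene of CD45 and its B220 form, was lower in B1a by 0.27 (3.74, 3.81, 3.76 and 3.81 against 4.05, 4.10, 3.97 and 4.09, adjusted p = 0.0011). Thy1 differed by 0.06 (adjusted p = 0.75) and Cd3e, a chain of the T cell receptor complex, by 0.86 (adjusted p = 0.053), and neither passed. Cd3e did pass as higher in B1a in 8 of 26 alternatives of the processing, with differences of 0.71 to 0.96 over all 26. Cdkn2c, the cell cycle inhibitor named in the title of the series, differed by -0.20 (adjusted p = 0.18).

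Of 22 measured genes known from B1a cells, 16 (72.7%) were higher and 1 lower in B1a, with a median difference of 0.79, against 11.3% and 11.1% of all named genes. Il10, the gene of interleukin 10, read 2.74, 2.83, 2.84 and 2.83 in B1a and lay at the floor on every Bs array. Its difference was at least 2.31 (SE 0.05, adjusted p = 8.8e-13), with the groups far apart and the B1a arrays within 0.1 units of each other. The Bs arrays, all at the floor, added no spread to this SE. Zbtb32, a zinc finger repressor, read 2.14, 2.13, 2.13 and 2.21 in B1a and from the floor to 0.82 in Bs (difference 1.57, adjusted p = 1.4e-09). Plscr1, a phospholipid scramblase, was higher by 1.65 (3.62 to 3.78 against 1.92 to 2.18), and the transcription factor gene Sox5 by at least 1.23, with 5 of 6 other probe sets on its side. Bhlhe41, a transcription factor that B1a cells depend on, did not pass (0.22), nor did Bhlhe40 (-0.05) or Itgam, the gene of CD11b (0.07). The member that was lower was Myo1d, a class I myosin (-0.99). In the 8 arrays of the Sle2c1 strain, 13 of these 17 calls were made in the same direction.

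Markers of other cell types also differed between the preparations. Of 24 macrophage genes, 12 were higher and 3 lower in B1a. The mean over the 24 was 1.77, 1.24, 1.82 and 2.27 on the 4 B1a arrays and 1.24, 1.37, 1.49 and 1.22 on the 4 Bs arrays, so that B1a 4 stood highest and B1a 2 lay within the Bs range. Serpinb2, an inhibitor of plasminogen activators, read 3.08, 2.19, 3.13 and 3.48 in B1a and lay at the floor in Bs. Prg4, the gene of lubricin, read 2.46, 1.53, 2.52 and 3.05 against 0.73, 0.56, 0.63 and 0.80, and Alox15, a lipoxygenase, 1.83, 0.76, 1.53 and 2.32 against the floor. These 3 genes thus had their lowest B1a value on B1a 2 and their highest on B1a 4. Adgre1, which encodes F4/80, was higher by 0.38 (adjusted p = 0.0455), while Csf1r (-0.41), Mertk (-1.04) and Cd163 (-0.98) were lower. The macrophage counts were 7 higher and 5 lower without B1a 4 (median 0.20 against 0.39 with all arrays), and 14 and 2 without B1a 2. Leaving out B1a 1, B1a 3 or Bs 4 gave 8, 7 and 7 higher with 2 lower each, and leaving out both Bs 1 and Bs 3 gave 7 and 2. They were 10 and 7 with array quality weights, 6 and 1 with the 8 B6 arrays fitted alone, and 6 and 0 with no floor.

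Of 10 mast cell genes, 8 were higher and none lower in B1a (median 1.19), and their mean was 1.45 to 1.76 on the B1a arrays and 0.556 to 0.655 on the Bs arrays. Hdc, which makes histamine, read 2.00, 1.85, 2.28 and 2.29 against 0.80 on Bs 4 and the floor on the other Bs arrays (difference 1.53, adjusted p = 1.1e-07). The tryptase gene Tpsab1 (1.31), the protease gene Cpa3 (1.37) and Gata2 (1.16), a transcription factor of mast cells and progenitors, were higher as well. The mast cell receptor genes Kit (-0.08) and Ms4a2 (-0.04) did not pass, and with no floor 3 of the 10 passed. Of 13 T cell genes 3 were higher and 2 lower, and the T cell receptor complex gene Cd3g read 1.63, 1.57, 1.38 and 1.85 in B1a against the floor or 0.57 in Bs. The T cell mean was 1.13 to 1.29 in B1a and 0.993 to 1.25 in Bs, so that these ranges overlapped.

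Markers of NK cells and of red cell precursors that passed were all lower in B1a. None of 9 NK cell genes was higher and 5 were lower in B1a (median -1.01), with means of 0.602 to 0.669 in B1a and 1.31 to 1.71 in Bs. Klrd1, which encodes the receptor CD94, read 1.92, 2.04, 2.25 and 2.07 in Bs and lay at the floor on 3 of 4 B1a arrays (difference -1.48, adjusted p = 3.5e-05). Of 8 erythroid genes 4 were lower and none higher, with means of 0.908 to 1.07 in B1a and 2.26, 2.20, 1.69 and 1.53 on Bs 1 to Bs 4. Car1, a carbonic anhydrase of red cells, read 2.54, 2.46, 2.26 and 1.58 in Bs against at most 1.03 in B1a. Slc4a1, the red cell anion exchanger, was lower by 1.01, and its call ended without Bs 2 (adjusted p = 0.0656). Of the platelet genes, Ppbp was lower by 1.78 and Pf4 higher by 1.32, the latter at 1.87, 1.02, 2.00 and 2.66 on the B1a arrays. In whole-population RNA, fewer cells of a type and less RNA per cell cannot be told apart, and the part of these other cells in the results below was not tested.

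**Figure D1:**
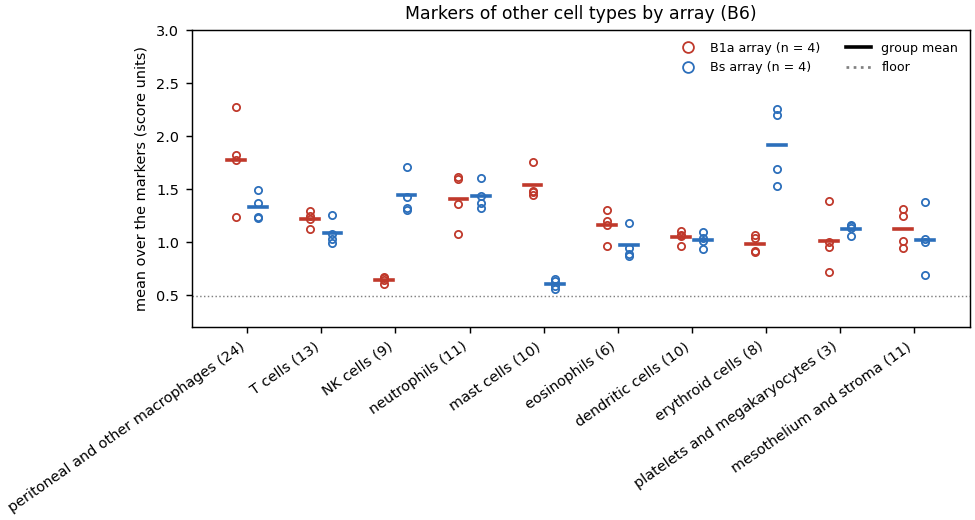
Mean level, in units of the deposited score, over the measured markers of each of 10 other cell types (number of markers in parentheses), with 1 circle per array, 4 B1a and 4 Bs arrays of B6 mice, a bar at each group mean and a dotted line at the floor. Mast cell means lie apart and higher in B1a (1.45 to 1.76 against 0.556 to 0.655), NK and erythroid means lie apart and lower, and macrophage means spread from 1.24 to 2.27 among the B1a arrays.

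The remaining markers were mixed. Of 11 neutrophil genes 3 were higher and 2 lower, and none of the 3 higher calls held without any 1 of B1a 3, B1a 4, Bs 2 or Bs 4 or with the 8 B6 arrays fitted alone. Among them was the calprotectin subunit gene S100a8 at 3.21 to 3.87 in B1a and 3.09 to 3.28 in Bs. Of 6 eosinophil genes 3 were higher and 1 lower, and the eosinophil peroxidase gene Epx read 1.09 to 1.50 in B1a against the floor in Bs. Of 10 dendritic cell genes 1 was higher (Ccr9, 0.70) and 1 lower (Zbtb46, -0.59), each with other probe sets that pointed the opposite way. Of 11 mesothelial and stromal genes 2 were higher and 2 lower (18.2% each). All named genes gave 11.3% higher and 11.1% lower, beside 10% each for the dendritic cell list. Sparc, a matrix protein gene, read 1.77, 2.78, 2.96 and 1.86 in B1a and at most 0.84 in Bs, with 1 of its 2 other probe sets opposite.

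Among genes higher in B1a whose groups did not overlap and that lay above the floor on at least 3 arrays of each group, the largest difference was that of Socs3, the feedback inhibitor of cytokine receptors that act through STAT3. It read 3.84, 3.75, 3.73 and 3.74 in B1a and 1.83, 1.71, 1.05 and 2.25 in Bs, a difference of 2.06 (SE 0.23, adjusted p = 1.6e-05), and its 2 other probe sets differed by 1.84 and 2.20. Lmna, the gene of the nuclear lamins A and C, differed by 1.92 and Furin, a protease that matures secreted proteins, by 1.89. Furin lay at 3.55 to 3.59 on the B1a arrays and 1.39 to 1.86 on the Bs arrays. The transcription factor gene Cebpd (1.75), the calcium binding protein gene S100a6 (1.73) and Fgl2, a secreted fibrinogen-like protein gene (1.69), were on this side as well. Camk2n1, an inhibitor of the kinase CaMKII, differed by 1.93, although its other probe set differed by -0.26. Zscan29 (1.94), Lmo7 (1.84), Ifi207 (1.74) and Prg4 (1.71) completed these 12 genes with Prdm1, described with the plasma cell genes.

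Among genes lower in B1a, the same limits gave Cr2 the largest difference, the gene of the complement receptors CD21 and CD35. It read 1.43, 1.19, 1.08 and 1.22 in B1a and 3.37, 3.38, 3.24 and 3.29 in Bs, a difference of -2.09 (SE 0.14, adjusted p = 1.1e-07), and the groups lay far apart. Car2, a carbonic anhydrase that red cells also make, differed by -2.08. It is itself a member of the erythroid list, and the part of red cells in its difference was not tested. Vcam1, an adhesion molecule gene, differed by -1.52, with 1 of its 2 other probe sets pointing the opposite way. The cannabinoid receptor gene Cnr2 differed by -1.51 and Icosl, the ligand of the T cell costimulator ICOS, by -1.45 (1.44 to 1.68 against 2.89 to 3.11). Housekeeping roles were also among these 12, with Parg, which removes poly(ADP-ribose), at -1.57, the tRNA splicing gene Tsen34 at -1.49, the rRNA methyltransferase gene Mettl5 at -1.48 and Meaf6, a subunit of histone acetyltransferase complexes, at -1.69 with its other probe set pointing the opposite way. Tlcd1 (-2.00, its 3 other probe sets between -0.12 and 0.16), Chchd1 (-1.67) and Adam23 (-1.49) were the rest.

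**Figure D2:**
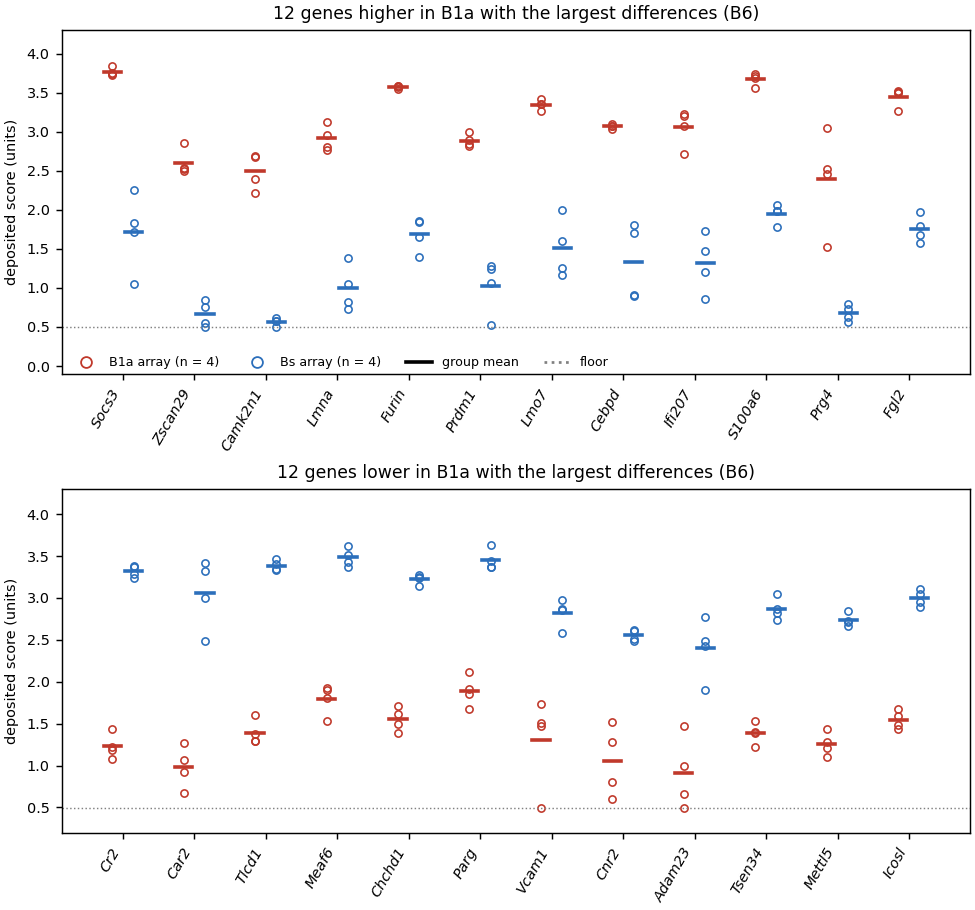
Deposited score on each of the 8 B6 arrays for the 12 genes higher (upper panel) and the 12 lower (lower panel) in B1a with the largest differences among called, non-overlapping genes above the floor on at least 3 arrays of each group. Circles are arrays (4 B1a, 4 Bs), bars are group means and the dotted line is the floor. Socs3 lies at 3.73 to 3.84 in B1a against 1.05 to 2.25 in Bs, and Cr2 at 1.08 to 1.43 against 3.24 to 3.38.

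For 213 of the higher genes all 4 Bs arrays lay at the floor, and for 139 of the lower genes all 4 B1a arrays did. Of the former, the highest B1a levels were those of Snd1, a ubiquitous nuclease (3.15 to 3.31, at least 2.75), Fzd6, a Wnt receptor (2.84 to 3.15, at least 2.52), Serpinb2, and Csnk1e, a circadian clock kinase (2.69 to 2.95, at least 2.33). Acod1, which makes itaconate in activated myeloid cells, read 2.22, 2.19, 3.09 and 3.14, so that B1a 3 and 4 stood above B1a 1 and 2. For several of these genes the difference was that of 1 probe set. The 2 other probe sets of Snd1 differed by 0.23 and 0.13, those of Fzd6 by 0.45 and 0.13, and those of Csnk1e by 1.38 and 0.24. Igfals (at least 2.10), Anxa13 (at least 2.00), Bcas1 (at least 1.97, its 2 other probe sets 0.16 and -0.24) and Gbp2b (at least 1.96) followed Il10. Of the genes at the floor in B1a, the kinase gene Stk35 read 2.84 to 2.93 in Bs (lower by at least 2.39) and Hemgn, a nuclear protein of erythroid progenitors, 2.84, 2.77, 2.12 and 2.13. Ferd3l, Insm2, Barhl1, Panx2, Trem2, Cgnl1, Tspan33 and Ces2g were the others, with Bs means 1.36 to 2.11 units above the floor. Other probe sets differed by -0.06 for Stk35, -0.02 for Trem2, -0.14 for Barhl1, 0.00 and -0.14 for Insm2, -0.86, -0.24 and 0.12 for Tspan33 and -0.24 to 0.29 for Cgnl1, and the call of Cgnl1 ended with the mean of its probe sets (-0.30, adjusted p = 0.0634). Barhl1 spread from 0.66 to 3.01 among the Bs arrays. A probe set was kept if 4 or more arrays of the series read above their own percentile, so 1 group could suffice. The share of all named genes with a whole group at the floor is not given here. The counts of 213 and 139 are therefore a description only.

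Genes of splenic B cell subsets that passed were lower in B1a more often than higher. Of 14 follicular genes 9 were lower and 1 higher (median -0.45). Fcer2a, which encodes CD23, the low-affinity IgE receptor, read 2.67, 2.69, 2.67 and 2.67 in Bs and 1.29 and 0.88 on B1a 1 and 4, with B1a 2 and 3 at the floor (difference -1.89, SE 0.16, adjusted p = 1.1e-06). The Fcer2a call ended in 1 of 25 alternatives of the processing (limma adjusted p = 0.31). Zfp318, needed for IgD expression, was lower by 0.68 and Cd55, a complement regulator, by 0.52. Of 15 marginal zone genes 5 were lower and 1 higher (median -0.27), with Cd1d1, which presents lipids, at 1.71, 1.39, 1.31 and 1.55 against 2.53, 2.61, 2.61 and 2.46. The higher one was Ebi3 (0.88), a subunit of interleukins 27 and 35. Cr2 belongs to both lists. All 10 follicular and all 6 marginal zone calls had the same sign in Sle2c1, and 9 and 6 of them were calls there.

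Of 8 germinal centre genes 5 were lower and none higher in B1a (median -0.34). Mybl1 read 1.78 to 2.34 in Bs against the floor or 0.53 in B1a, and the signalling regulator Rgs13 1.82 to 2.54 against 1.08 to 1.27. Bcl6, the master repressor of germinal centre cells, was lower by 0.20 (adjusted p = 0.028), and that call ended without any 1 of 6 of the 8 arrays. None of the 5 passed in the Sle2c1 arrays, where Rgs13 differed by 0.23 and Basp1 by 0.04. The differences between the strains did not pass for either (interaction adjusted p = 0.19 for both).

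Of 16 general B cell genes 9 were lower and 1 higher (median -0.20), which became 3 and 0 when arrays were centred on their medians. Cd72, an inhibitory coreceptor, had the largest of the differences described (1.68 to 1.89 against 2.90 to 3.01, -1.15), followed by Ralgps2 (-0.82) and Blnk, the adaptor of the B cell receptor (-0.71, 2.75 to 2.91 against 3.42 to 3.63). Fcmr, the IgM Fc receptor gene, was lower by 0.34. Of 16 B cell receptor signalling genes 6 were lower and 2 higher, or 3 and 2 with median centring. Rasgrp3, which links the receptor to Ras, read 1.78, 1.70, 1.37 and 1.53 against 3.00, 3.03, 3.02 and 2.94 (-1.40). The kinase gene Fyn was lower by 0.47, while Syk, the kinase that starts the signal, was higher by 0.42, with 1 of its 3 other probe sets pointing the opposite way.

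Of 14 genes of MHC class II and antigen presentation 7 were lower and 3 higher, and this list depended on the scaling, with 1 lower and 3 higher under median centring and 2 lower and 3 higher under quantile normalization. H2-Ob, a modulator of peptide loading, was lower by 0.38, and H2-Aa, a class II chain, by 0.30 with 1 of its 3 other probe sets opposite. Cd80, a costimulatory ligand of CD28 and CTLA-4, was higher by 1.32 (1.99 to 2.12 in B1a, 1.47 on Bs 3 and the floor on the other Bs arrays). Ifi30, a lysosomal thiol reductase, was higher by 0.51.

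Plasma cell and secretion genes went in both directions, 4 of 15 higher and 2 lower. Prdm1, which encodes Blimp-1, the repressor that drives antibody secretion, read 3.00, 2.89, 2.82 and 2.84 in B1a and 1.24, 1.06, 0.53 and 1.28 in Bs (1.86, SE 0.16, adjusted p = 9.6e-07). Irf4, another plasma cell regulator, was higher by 0.30 and the secretory factor gene Creb3l2 by 0.89. Jchain, which joins IgM and IgA into polymers, was lower, at 2.58, 2.68, 2.53 and 2.31 against 3.80, 3.95, 3.94 and 3.92 (-1.38, adjusted p = 5.6e-07). Of 3 measured immunoglobulin constant region genes, Igha, the IgA heavy chain, read 0.70 and 0.66 on B1a 1 and 2, the floor on B1a 3 and 4, and 3.49, 3.11, 3.30 and 3.03 in Bs (-2.65, SE 0.10, adjusted p = 3.0e-10). Its 2 other probe sets pointed the same way. Ighm, the IgM heavy chain, differed by -0.17 (adjusted p = 0.0631) and Ighg3 by 0.05, and neither passed.

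**Figure D3:**
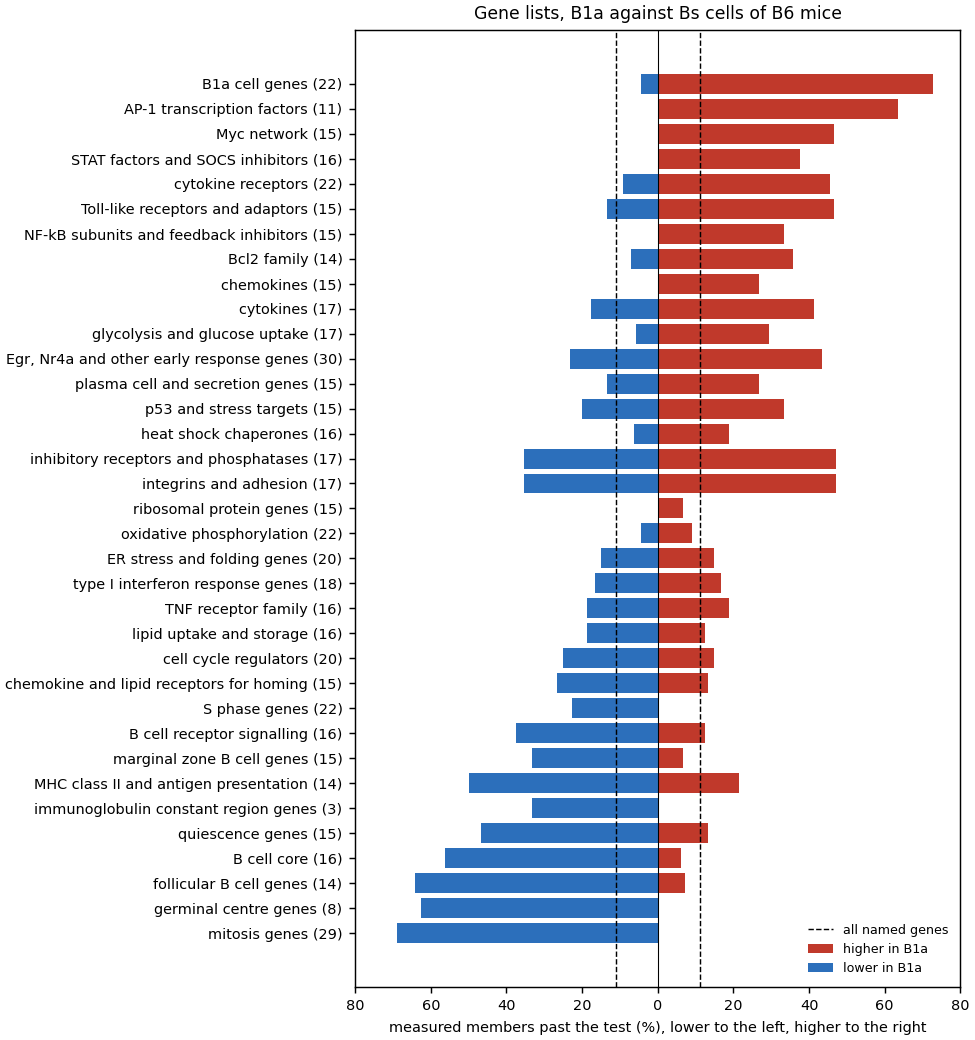
Percentage of the measured members of each gene list (number measured in parentheses) that were higher (to the right) or lower (to the left) in B1a than in Bs cells of B6 mice at an adjusted p under 0.05, with dashed lines at the percentages over all named genes (11.3% higher and 11.1% lower). B1a cell genes (72.7%) and AP-1 factors (63.6%) reach farthest to the right, and mitosis genes (69.0%) farthest to the left.

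Secreted signals were more often higher than lower. Of 17 cytokine genes 7 were higher and 3 lower, and of 15 chemokine genes 4 were higher and none lower. The chemokine counts were 3 higher and 2 lower without Bs 1, and 5 and 3 with array quality weights. Csf1, the growth factor of macrophages, read 2.26, 2.28, 2.16 and 2.37 in B1a and 1.25 on Bs 3, with the other Bs arrays at the floor (1.58). Il18 was higher by 1.05 and Il6, an inflammatory cytokine, by 1.62 (2.11, 1.92, 2.41 and 2.64 against at most 0.97). Cxcl2, a neutrophil attractant, read 3.16, 3.13, 3.74 and 3.82 in B1a and at most 0.68 in Bs (2.92, SE 0.16, adjusted p = 8.0e-09), and Cxcl1, of the same family, 2.41, 2.61, 2.96 and 3.22 against at most 0.99. For Il6, Cxcl1, Cxcl2 and Ccl2 (0.74), B1a 3 and 4 stood above B1a 1 and 2. Cxcl13, which attracts B cells and is made by peritoneal macrophages, read 3.04, 1.97, 2.75 and 3.36 against 0.97, 1.81, 2.40 and 1.95. Its lowest B1a value was on B1a 2 and its highest on B1a 4, and its call ended without any 1 of 5 arrays. The part of macrophages in the Cxcl13 level was not tested. With no floor the cytokine counts were 4 higher and 1 lower. Among genes above the floor on all 8 B6 arrays they were 2 higher and 2 lower, and the chemokine counts 1 and 0. In Sle2c1, 8 of the 10 cytokine calls and 1 of the 4 chemokine calls were made in the same direction.

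Of 22 cytokine receptor genes 10 were higher and 2 lower (median 0.26). Il6st, which encodes gp130, the shared signalling chain of the interleukin 6 family, read 3.11, 2.99, 2.97 and 3.12 against 1.71, 1.72, 1.53 and 1.80 (1.36, adjusted p = 4.6e-09), and all 3 other probe sets pointed the same way. Il2ra, the alpha chain of the interleukin 2 receptor, was higher by 1.66 (1.80 to 2.42 against at most 0.57), and Csf2rb, the chain shared by the receptors for interleukins 3 and 5 and GM-CSF, by 0.79. Il1r2, a decoy receptor, read 1.40, 1.95, 2.22 and 2.13 against the floor (at least 1.43). Il5ra, the interleukin 5 receptor through which B1a cells are maintained and which eosinophils also carry, was higher by 0.49.

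Of 15 genes of Toll-like receptors and their partners 7 were higher and 2 lower. Cd14, a coreceptor for lipopolysaccharide, read 2.67, 2.41, 3.15 and 3.35 in B1a and 0.61 or the floor in Bs (2.37, adjusted p = 6.7e-08). It is also a member of the macrophage list, and the part of macrophages in its level was not tested. Ly96, the partner of TLR4, was steadier at 2.42, 2.45, 2.49 and 2.47 against 1.75, 1.90, 1.67 and 1.82 (0.67). Tlr1 (-0.64) and Tlr3 (-0.82) were the 2 lower members.

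Genes of the STAT and SOCS pathway, by which cytokine receptors signal to the nucleus, were higher or did not pass, with 6 of 16 higher and none lower. Cish, a SOCS family inhibitor induced through STAT5, read 2.45, 2.45, 2.37 and 2.34 in B1a and lay at the floor on every Bs array (at least 1.91, SE 0.05, adjusted p = 9.8e-12). Stat3 was higher by 0.46 (3.11, 3.16, 3.22 and 3.27 against 2.67, 2.74, 2.63 and 2.88) with all 3 other probe sets on its side. Socs2 was higher by 0.69, with 2 of its 5 other probe sets opposite. Stat5a (0.11), Stat6 (0.02) and Socs1 (0.20) did not pass. All 6 calls of this list had the same sign in Sle2c1, and 3 of them were calls there.

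AP-1 factors, which pair Jun and Fos family proteins, are induced within minutes to hours by many stimuli. Of 11 measured, 7 were higher and none lower (median 0.84), and the list mean was 2.16 to 2.27 in B1a and 1.45 to 1.47 in Bs. Jun read 3.75, 3.68, 3.58 and 3.68 against 2.43, 2.50, 2.44 and 2.39 (1.23, SE 0.05, adjusted p = 5.5e-10). Fosl2 was higher by 1.28 (3.03 to 3.25 against 1.75 to 2.12), Atf3, a stress-induced member, by 1.44 and Batf, a lymphocyte member, by at least 1.18. Fos itself did not pass (0.17, 2.57 to 3.05 against 2.60 to 2.82). With no floor 3 of the 11 passed. Among AP-1 genes above the floor on all 8 B6 arrays 2 were higher and the median was 0.18. All 7 calls had the same sign in Sle2c1, and 3 of them were calls there.

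Other early response genes went both ways, 13 of 30 higher and 7 lower. Ier3 read 2.38, 2.45, 2.79 and 2.79 in B1a against 0.72 or the floor in Bs (2.05), and Pim1, a kinase gene induced through STATs, 3.90 to 3.92 against 2.92 to 3.01 (0.95, adjusted p = 4.8e-08). The phosphatase genes Dusp5 and Dusp6, both of which restrain ERK, went opposite ways. Dusp5 was higher by 0.94 (3.09, 3.17, 3.14 and 2.91 against 2.06, 2.11, 2.22 and 2.17) and Dusp6 lower by 1.27 (1.80, 1.63, 1.81 and 1.90 against 3.02, 3.11, 2.97 and 3.11). Of 15 NF-kB subunits, inhibitors and feedback targets 5 were higher and none lower, led by Bcl3, a nuclear coactivator (1.10, 2.57 to 2.65 against 1.44 to 1.56), Rela, the p65 subunit (0.73), Icam1 (0.59) and Nfkbid, a nuclear inhibitor (0.36). Of 15 genes of the Myc network 7 were higher and none lower, with Myc at 2.32, 2.25, 2.22 and 2.46 against 1.35, 1.55, 1.83 and 1.73 (0.70), its antagonist Mxd1 at 0.87 with 1 of its 2 other probe sets opposite, Odc1, the first enzyme of polyamine synthesis, at 0.29, and the nucleolar methyltransferase gene Fbl at 0.28. The Myc count was 3 with median centring and 4 without Bs 1 and Bs 3.

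The promoters of 4 of these higher genes are shown because they hold letters that match the motifs searched for. Whether any factor binds at these matches was not tested. The sequences come from RefSeq on GRCm38.p6 and hold only bases upstream of a listed start, in the gene's 5′ to 3′ direction, with the matches in capitals. Socs3 (chr11:117969428-117969546, minus strand) holds a STAT-like TTCNNNGAA and an NF-kB-like site (GGGA, 4 bases of any kind, CC). Dusp5 (chr19:53529009-53529127, plus strand) holds a pair of adjacent CArG boxes, the site of serum response factor, the first of which shares a base with an NF-kB-like match. Icam1 (chr9:21015843-21015939, plus strand) holds a STAT-like match, and Nfkbid (chr7:30422170-30422372, plus strand) an NF-kB-like match and a cyclic AMP response element, TGACGTCA.
Socs3: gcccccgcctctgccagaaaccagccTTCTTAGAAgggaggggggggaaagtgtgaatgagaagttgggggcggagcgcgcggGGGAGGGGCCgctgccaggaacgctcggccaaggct
Dusp5: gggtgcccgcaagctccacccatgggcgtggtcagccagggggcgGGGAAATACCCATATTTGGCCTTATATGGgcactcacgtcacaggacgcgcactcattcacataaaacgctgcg
Icam1: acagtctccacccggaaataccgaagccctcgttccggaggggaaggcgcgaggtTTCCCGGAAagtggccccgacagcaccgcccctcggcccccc
Nfkbid: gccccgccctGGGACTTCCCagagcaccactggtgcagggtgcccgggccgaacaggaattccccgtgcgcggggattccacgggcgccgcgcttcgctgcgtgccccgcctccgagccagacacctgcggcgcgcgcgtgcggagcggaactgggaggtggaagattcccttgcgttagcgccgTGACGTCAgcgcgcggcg

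Such matches are common, and they are a description of letters, not of binding. In windows from 250 bases before to 50 bases after a start, on both strands, TTCNNNGAA occurred in 9.55% of the 27025 genes of the promoter table, the NF-kB-like site in 22.9%, TGACGTCA in 2.03%, a CArG box in 1.81%, the AP-1 site TGANTCA in 8.97% and the E-box CACGTG in 8.09%. Of the higher members with a promoter in the table, TTCNNNGAA was in 2 of 5 STAT and SOCS genes, the NF-kB-like site in 3 of 4 NF-kB genes and 4 of 7 AP-1 genes, and a CArG box in 2 of 11 early response genes. The NF-kB-like site was also in 1 of the 5 STAT and SOCS genes and 4 of the 11 early response genes, and in 9 of 13 measured NF-kB genes whatever their call. Likewise TTCNNNGAA was in 2 of the 4 NF-kB genes, 1 of the 7 AP-1 genes and none of the 11 early response genes. Whatever their call, 2 of 14 measured STAT and SOCS genes (14.3%) held it. CACGTG was in 5 of the 11 early response genes, 1 of the 7 AP-1 genes and none of the NF-kB or STAT and SOCS genes. TGANTCA was in none of these higher AP-1, early response, NF-kB or STAT and SOCS genes. A match on 1 strand can overlap a match of another motif, as in Dusp5, and was counted for both.

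Among inhibitory receptors and phosphatases 8 of 17 were higher and 6 lower. Ctla4, the inhibitory receptor for CD80 and CD86, read 2.03, 2.40, 2.53 and 2.73 against 0.93, 0.63 or the floor (1.78, SE 0.15, adjusted p = 7.0e-07). Cd274, which encodes PD-L1, was higher by 0.66 (3.50 to 3.57 against 2.78 to 2.91) and Ptpn22, a phosphatase that limits antigen receptor signals, by 0.72. Fcrl1, an Fc receptor-like gene of B cells, was lower by 0.74 (1.94 to 2.02 against 2.67 to 2.82), on the same side as Cd72. Each of these 4 had the same call in Sle2c1.

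Of 17 integrin and adhesion genes 8 were higher and 6 lower, which became 7 and 1 with no floor, 6 and 3 with median centring and 8 and 3 with quantile normalization. Itga6 was higher by 0.52, Itgb7, the partner of alpha 4 in gut homing, by 0.49, and the tetraspanin gene Cd9, a marker of B1 and marginal zone cells, by 0.66. Of 15 homing receptor genes 2 were higher and 4 lower. Ccr1, a receptor for inflammatory chemokines, read 2.65, 2.75, 3.06 and 2.57 against 1.38, 1.50, 1.81 and 1.80 (1.14), and Ccr2, the monocyte chemokine receptor, 1.22, 1.07, 0.63 and 1.81 against 2.54, 2.48, 2.72 and 2.76 (-1.44). The scavenging chemokine receptor gene Ackr3 was lower by 0.56 (1.21 to 1.75 against 1.78 to 2.05).

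Survival genes were mixed. Of 14 Bcl2 family genes 5 were higher and 1 lower, with the pro-apoptotic Bcl2l11, which encodes Bim, higher by 0.55 and Bmf, of the same class, lower by 0.92, with 1 of its 2 other probe sets opposite. Bak1 was higher by 0.88, although its other probe set pointed the opposite way, and the pro-survival Bcl2l2 by 0.34. Of 16 genes of the TNF receptor family and its ligands 3 were higher and 3 lower (18.8% each). All named genes gave 11.3% and 11.1%, and without Bs 1 and Bs 3 the counts of this family were 1 and 3. Tnfrsf13c, which encodes the BAFF receptor of mature B cells, was lower by 0.46 (3.61 to 3.72 against 3.95 to 4.23), Tnfrsf21 by 1.00, and Tnfrsf1b, the second TNF receptor, higher by 0.85.

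Most mitosis genes were lower in B1a, and most S phase genes did not pass. Of 29 mitosis genes 20 (69.0%) were lower and none higher (median -0.64), and the list mean was 1.19, 1.22, 1.18 and 0.993 in B1a and 1.66, 1.79, 1.73 and 1.70 in Bs, with no overlap. Mki67, which encodes Ki-67, read 1.44, 1.60, 1.65 and 1.54 against 2.23, 2.49, 2.54 and 2.52 (-0.89, SE 0.15, adjusted p = 0.00078). Ccna2, a cyclin of S and G2 phase, was lower by 0.75 (1.64 to 2.03 against 2.43 to 2.70), Birc5, which encodes survivin, by 0.78 and the spindle checkpoint kinase gene Bub1 by 1.00. With no floor 10 of the 29 were lower, with quantile normalization 17, and 15 of the 20 were also called lower in Sle2c1. Of 22 S phase genes 5 were lower, none was higher and 17 did not pass, and with the mean of a gene's probe sets the counts were 2 lower and 1 higher. Among the 5 were the primase gene Prim1 (-0.40), Uhrf1, which maintains DNA methylation (-0.43), and the helicase subunit gene Mcm7 (-0.32). The ribonucleotide reductase gene Rrm2 was lower by 0.67, but its 2 other probe sets pointed the opposite way. Erythroid markers were on the same side, 4 of 8 lower, and their part in these counts was not tested.

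Regulators upstream of division went both ways. Of 20 measured, 3 were higher (15%) and 5 lower (25%), against 11.3% and 11.1% of all named genes. Ccnd2, a D-type cyclin, read 3.51, 3.55, 3.71 and 3.50 in B1a and 2.65, 2.60, 2.62 and 2.38 in Bs (1.00, SE 0.08, adjusted p = 4.1e-07), and all 6 other probe sets pointed the same way. Cdkn2d, which encodes the Cdk4/6 inhibitor p19INK4d, was higher by 1.33 (2.97 to 3.24 against 1.65 to 1.97). Cdkn1b, which encodes p27KIP1, was lower by 0.52 (3.29 to 3.41 against 3.80 to 3.97) and the pocket protein gene Rbl1 by 0.34 with 1 of its 3 other probe sets opposite. Of 15 quiescence genes 7 were lower and 2 higher, or 3 and 2 with median centring. Ccng2, a cyclin of resting cells, was lower by 0.77, the thioredoxin inhibitor gene Txnip by 0.41, and Pik3ip1, an inhibitor of PI3 kinase, was higher by 0.53.

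**Figure D4:**
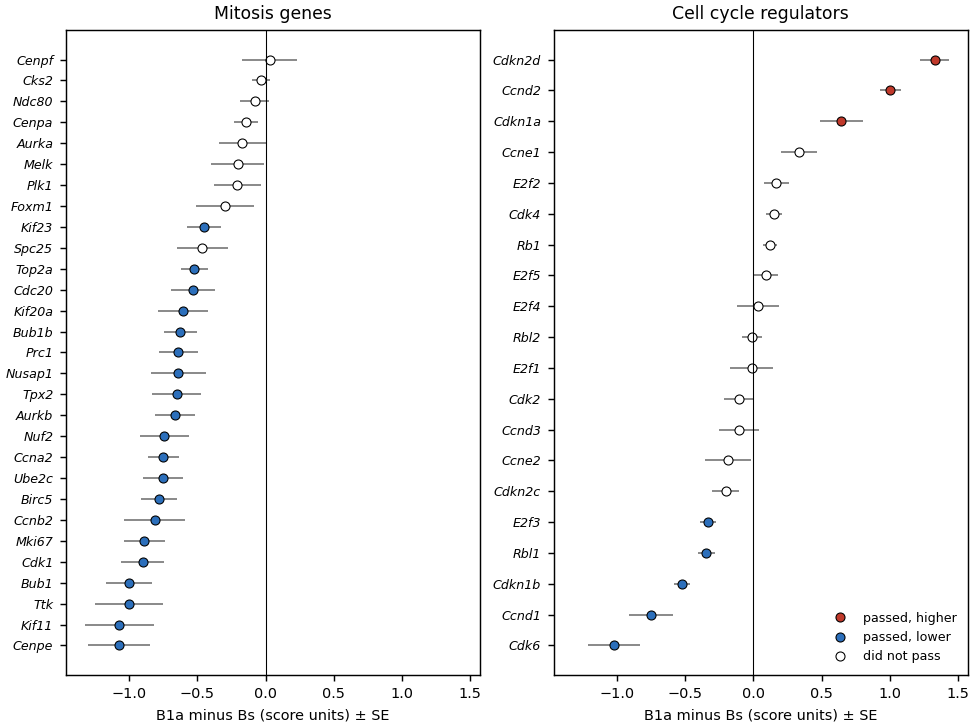
B1a minus Bs difference of B6 mice in units of the deposited score, with its SE from the limma fit, for 29 mitosis genes (left) and 20 cell cycle regulators (right). Filled points passed an adjusted p under 0.05 (red higher, blue lower), open points did not, and 20 mitosis genes passed as lower while Cdkn2d (1.33) and Ccnd2 (1.00) passed as higher.

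Metabolic and stress genes were counted in the same way. Of 17 genes of glycolysis and glucose uptake 5 were higher and 1 lower, or 2 and 0 without Bs 1 and Bs 3. Hk2, a hexokinase, read 2.60, 2.75, 2.76 and 2.96 against 1.97, 1.89, 1.79 and 1.97 (0.86), and Pfkfb3, an activator of glycolysis, was higher by 0.97, although its other probe set pointed the opposite way. The transporter genes Slc2a1 (0.29) and Slc2a3 (-0.24) went opposite ways. Of 16 lipid genes 2 were higher and 3 lower, with the fatty acid receptor gene Cd36 at -0.76 and the triglyceride synthesis gene Dgat2 at 0.74, whose call ended without B1a 3 (adjusted p = 0.0529). Of 22 genes of oxidative phosphorylation 2 were higher and 1 lower, and of 15 ribosomal protein genes 1 was higher (Rpl37, 0.43, a call that ended without any 1 of 5 arrays) and none lower, with medians of 0.03 and -0.01.

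Of 16 heat shock genes 3 were higher and 1 lower. The inducible Hsp70 genes Hspa1a and Hspa1b, near-identical copies whose probes may share signal, were higher by at least 1.09 and by 1.26, with Hspa1b at 2.48, 2.47, 2.77 and 2.83 against 1.79, 0.90, 0.98 and 1.84. Of 20 genes of ER stress and folding 3 were higher and 3 lower, with the co-chaperone gene Dnajb9 at 0.32 and Sdf2l1 at -0.81. Of 15 targets of p53 and stress 5 were higher and 3 lower, with the stress sensor Gadd45g at 0.85, Sesn1 at -0.79 and Phlda3 lower by at least 1.08. Of 18 type I interferon response genes 3 were higher and 3 lower, with Irf9 at 0.22 and Oas1a at 0.45, while Ifit2 (-0.40) and Usp18 (-0.59) lost their calls without any 1 of 3 and 5 of the 8 arrays. The ER shares (15% each way) and interferon shares (16.7% each way) lay near the 11.3% and 11.1% of all named genes.

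The same contrast was measured on other arrays in the Sle2c1 strain, where 1447 named genes (9.89%) were higher and 1818 (12.4%) lower in B1a. Of the B6 calls, 1601 (96.7%) of the higher and 1589 (98.1%) of the lower genes had the same sign there. Calls in both strains were 1017 for higher, which is 61.4% of the B6 and 70.3% of the Sle2c1 calls, and 1120 for lower, 69.1% and 61.6%, and 5 genes had opposite calls. Across the named genes the differences correlated at r = 0.814, a description across genes, which are not independent replicates. Il10 (at least 2.15), Socs3 (2.18), Cish (at least 1.75), Cr2 (-2.54), Fcer2a (-2.13) and Igha (lower by at least 2.38) all had the same call in Sle2c1. The interaction of cell type and strain passed for 70 named genes, of which 3 are described here. Icosl was lower in B1a by 2.35 in Sle2c1 against 1.45 in B6 (interaction -0.89, adjusted p = 0.0165), and Ackr3, at the floor on all 4 Sle2c1 B1a arrays, by at least 1.86 against 0.56 (interaction -1.30, adjusted p = 0.00063). Lpl, a lipoprotein lipase gene, was higher in B1a by 0.48 in B6 and lower by at least 0.82 in Sle2c1 (interaction -1.30, adjusted p = 0.0177), and its B6 call ended without any 1 of 5 of the 8 arrays.

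**Figure D5:**
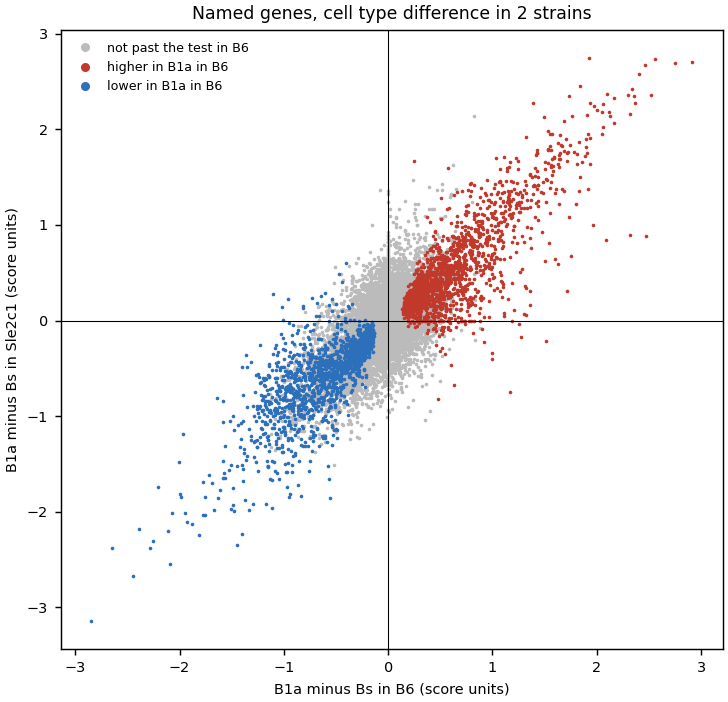
B1a minus Bs difference of each named autosomal gene in B6 (horizontal) and Sle2c1 mice (vertical), in units of the deposited score, coloured by the B6 call (red higher, blue lower, grey not past the test). The points run along the diagonal with r = 0.814, and most called genes have the same sign in both strains (96.7% of the higher and 98.1% of the lower).

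Of the macrophage genes described above, Prg4, Serpinb2 and Alox15 did not pass in Sle2c1, nor did the platelet gene Pf4. Prg4 differed by 0.30 there (adjusted p = 0.321), Serpinb2 by at least 0.88 (adjusted p = 0.0725), Alox15 by at least 0.05 (adjusted p = 0.595) and Pf4 by at least 0.06 (adjusted p = 0.559). The values of the last 3 are lower bounds, and none of the 4 interactions passed (adjusted p = 0.175, 0.148, 0.279 and 0.175). Of the 15 macrophage calls in B6, 6 were calls in Sle2c1 in the same direction, beside 4 of 8 for mast cell genes.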

How the data were processed

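RNA was extracted from the cells, amplified and labelled with biotin (NuGEN Ovation), per the labels' protocols, and measured on Affymetrix Mouse Genome arrays. The values come from 1 table with 45101 probe sets, 64 of them controls, in a unit that is here called a score. The deposited score is log-like, and its base, centring and scaling, the software and the genome build are not given in the sources used here. Log2 values had been assumed in planning, and differences are therefore in units of the score. Each B6 array shares its own lowest value over 22.8% to 31.4% of its probe sets, and precision is limited by how many arrays there are, since no depth underlies array values.

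The 40th percentile of each array was taken, and values under the median of these percentiles, 0.495, were raised to it. A probe set was kept if 4 or more of the 16 arrays read above their own percentile. Of all probe sets, 34958 had 1 gene name, 932 several and 9211 none in the platform annotation, and 99.42% of the first kind were matched by Entrez identifier to RefSeq symbols (GRCm38.p6). Each gene was represented by its probe set of highest mean, and the text says where a gene's other probe sets pointed the opposite way. The 4 group means of all 16 arrays were fitted with limma 3.58.1 (R 4.3.3), two-sided, and the Sle2c1 contrast on its own 8 arrays.

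The genes named are the 12 largest non-overlapping differences in each direction, the 10 highest genes with the other group at the floor in each direction, up to 4 members of each of 45 lists (642 of 739 genes measured) with the smallest adjusted p, defining members that did not pass, and the genes of the selection antigens and Cdkn2c. Myo1d, Adgre1, Csf1r, Mertk and Cd163 were named after their values were seen. The members and lists were chosen with earlier results of these data known. The STAT-like motif and the alternative that leaves groups at the floor out of the spread were added after the data were seen. Alternatives covered the filter, floor, scaling, probe sets, form of the test, threshold, replicate block and left-out arrays. The limma step was tested on simulated data.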

Additional observations from a re-analysis of the deposited data

Results flagged for a closer look

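In 20 cases 1 array of a group of 4 lay apart from the others, a pattern that chance gives in about 1 in 20 groups. The 203 named genes were examined in both groups, except where an array of the group lay at the floor. The number of groups examined is not given here, so the 20 cases cannot be told from that rate. Among B1a arrays, B1a 4 was apart for Zscan29 (2.85 against 2.50 to 2.54), Zbtb32 (2.21), Irf4 (3.64), Fcrl1 (1.94), Cd9 (2.23), Birc5 (1.85) and the macrophage-expressed Cd36 (1.59 against 1.05 to 1.12). B1a 1 was apart for Fgl2 (3.26), Il10 (2.74) and Fbl (2.71), B1a 2 for Slc2a1 (3.28) and B1a 3 for Dnajb9 (3.11). Among Bs arrays, Bs 3 was apart for Fcmr (3.24), Ccna2 (2.43) and Hsp90aa1 (3.89), Bs 2 for Fcer2a (2.69) and Sdf2l1 (2.41), Bs 4 for Cd55 (2.84) and Cd247 (2.15), and Bs 1 for Mki67 (2.23). In Il10, Fcer2a and Zbtb32 the array that stood apart did so by less than 0.1 units.

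The cell type difference itself differed between the strains, by the interaction test, for Icosl (Sle2c1 minus B6 -0.89), Ackr3 (-1.30) and Lpl (-1.30).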

How the results depend on the processing

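The 2001 higher features became 3135 when every probe set was tested, 3756 with array quality weights, 1230 at an adjusted p under 0.01 and 1098 with a difference of at least 0.5 units required. The 2729 lower features became 6449 with array quality weights, 1216 at an adjusted p under 0.01 and 1669 with at least 0.5 units. Leaving out 1 array gave 1566 (without Bs 2) to 2090 (without Bs 1) higher and 1675 (without Bs 2) to 4198 (without Bs 1) lower features, with 1757 and 1749 lower without B1a 2 and B1a 3. The 2954 B6 calls also made on the Sle2c1 arrays became 1712 with no floor, 5438 with array quality weights, 1478 at the stricter threshold and 1540 with at least 0.5 units, and 2374 to 3237 with 1 array left out. With replicate number as a replicate block the counts were 2033 higher and 3038 lower in the 16-array fit (1923 also made in Sle2c1), and 1070 higher, 1041 lower and 1203 in the 8-array fit. Same-numbered B1a and Bs arrays deviated together at r = -0.0807 to 0.0616, so that the numbers were not taken to pair arrays. Of the 203 named genes, 49 lost their call with no floor and 45 with the replicate block in the 8-array fit. Fcer2a, Icosl, Cnr2, Car2, Lmna, Il6, Il2ra, Csf1, Hdc and Atf3 each lost their call in 1 alternative (limma adjusted p = 0.284 to 0.483). Rrm2 (0.76) and Cd247 (0.07) changed sign with the mean of a gene's probe sets, and Thy1 ranged from -0.02 (without B1a 1) to 0.16 (without Bs 1) with 1 array left out. The cause was not tested. No single scaling moved the median of all named genes by over 0.1 units.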
